A study of Moricandia arvensis and Moricandia suffruticosa and Moricandia moricandioides with 78 samples.

Results

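The glucosinolate pathway was followed in leaves of 3 Moricandia species through 40 genes, out of the 33602 Arabidopsis features quantified in every library. The 40 genes were chosen by their Arabidopsis identifiers, as the known enzymes of chain elongation, core structure formation and side-chain modification, the MYB regulators and the transporters of aliphatic and indole glucosinolates. The aliphatic branch held 24 genes (8 of chain elongation, 6 of the core structure, 7 of side-chain modification and 3 MYB regulators) and the indole branch 11 (4 core enzymes, 4 side-chain enzymes and 3 MYB regulators). The other 5 were 3 core enzymes that serve both branches and 2 transporters. All 40 were in the tables, and between 36 and 40 of them passed the filter on low counts in each comparison.

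The libraries came from well-watered and droughted plants of M. moricandioides (Mmo, a C3 species and diploid), M. arvensis (Mav, C2 and diploid) and M. suffruticosa (Msu, C2 and tetraploid), each grown from 1 seed stock, with fully expanded mature leaves collected from several plants per species and treatment. Samples were taken before water was withheld (T0), when the stomatal conductance of droughted plants had fallen to about 50% (T1) and about 10% (T2) of its starting value, and after rewatering (RW). The groups held 3 drought and 4 control libraries at T1, 3 and 2 at T2 and 4 and 4 at RW in Mmo, 1 and 4 at T1, 5 and 5 at T2 and 4 and 5 at RW in Mav, and 3 and 4 at T1, 4 and 3 at T2 and 4 and 3 at RW in Msu, with 4 (Mmo), 5 (Mav) and 4 (Msu) controls at T0. Library totals lay between 22346621 and 41675513 counts. The labels call each library a biological replicate and give it a code, but do not say which plants are behind it. A p-value thus measures only the spread between these libraries, which may be technical.

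Glucosinolates are sulfur-rich defence compounds of the Brassicales, made from methionine (aliphatic) or tryptophan (indole) and broken down to toxic products by myrosinases when leaf tissue is damaged. In Arabidopsis, methionine is first lengthened by chain elongation enzymes. Cytochromes P450, glutathione-dependent steps, a C-S lyase, glucosyltransferases and sulfotransferases then build the core, and the side chain is oxidised or hydroxylated. The R2R3 MYB regulators fall into an aliphatic and an indole set, and proton-coupled transporters load the finished compounds for long-distance movement. The roles given here are those known from Arabidopsis. The files pair identifiers with no names, so genes are given by identifier and pathway step, with a symbol only where the study pairs it (IPMI1 for AT3G58990, SOT17 for AT1G18590, CYP79B3 for AT2G22330, CYP83B1 for AT4G31500 and UGT74B1 for AT1G24100).

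Some libraries went against independence or against their labels. Of 116 pairs of libraries within groups, 20 differed far less than other pairs (1.66 to 4.00 times the counting variance, where the next pair had 6.49). With pairs below a chosen limit of 5 merged within groups only, the 78 libraries held 61 distinct profiles. The control libraries S33c and S36c and the drought libraries S5s and S8s of Msu at T2 were near-identical across treatments, and these 4 and all 3 RW controls of Msu (S5c, S6c and S7c) resembled Mmo libraries more than Msu libraries. The Mav RW control A17c was about as close to Msu (correlation 0.889) as to Mav (0.890), and the droughted Mav library A37s (T2) was about as close to Mmo (0.703) as to Mav (0.705). The Mmo T1 control M6c was closer to the RW control M21c (9.465 times the counting variance) than to any other Mmo T1 control. Leaf mesophyll markers summed to between 4574 and 40762 CPM (counts scaled to the library total) across groups, root markers to 3.72 CPM at most, and seed markers reached 113.9 CPM in the Mmo control M6c (T1) and 79.9 and 91.9 CPM in M21c and M24c (RW). In bulk leaves, fewer cells of a type and less RNA per cell cannot be told apart.

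Correlations between members were taken over log2-transformed CPM in the 78 libraries. The median correlation between 2 aliphatic enzymes was 0.72 (210 pairs), against 0.38 between 2 indole enzymes (28 pairs), and 0.77 and 0.45 after each group's mean was removed. With the MYB regulators included these medians were 0.69 and 0.27 (276 and 55 pairs), and between genes of different branches the median was 0.22 (264 pairs). The correlations are descriptive, since the libraries share species, treatment and in part near-identical profiles, and close paralogs can share reads.

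Correlations with a branch were taken with the log2 of the summed CPM of its enzymes, without the gene itself. The chain elongation gene AT5G23010 followed the summed aliphatic enzymes most closely (r = 0.97 over 78 libraries). The closest pairs were close paralogs, such as the side-chain genes AT4G03060 and AT4G03050 (r = 0.997) and the core genes AT1G16410 and AT1G16400 (r = 0.994). Across different steps, AT5G23010 and the core gene AT1G16410 were the closest (r = 0.952). The regulator AT5G07690 also followed the aliphatic sum (r = 0.91), as did 2 core genes counted to both branches, AT2G20610 (r = 0.88) and UGT74B1 (r = 0.87). IPMI1, a chain elongation gene, did not (r = -0.36), nor did the side-chain gene AT1G12140 (r = 0.36). These genes were singled out after their values were seen.

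The summed aliphatic enzymes (21 genes, in TPM, a unit scaled by gene length) differed widely between libraries of a group. In Mmo at T1 the sum was 4072, 3697 and 4269 TPM under drought, against 12695, 2749, 11757 and 12046 TPM in controls. M6c, the library with the seed markers, was the low control. At T2 the sum was 4596, 4603 and 1593 TPM under drought, against 6777 and 11338 TPM in controls. M17s and M19s lay above the T0 range and M20s below it. Against T0, treatment and sampling time cannot be told apart.

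In Mav at T2 the aliphatic sum was 1943, 1307, 1314, 1969.5 and 2032 TPM under drought, against 2419.6, 7297, 2147, 7815 and 1698 TPM in controls, where A15c and A16c were the high ones. The 5 Mav controls of T0 had 1351 to 3176.5 TPM, which overlapped the droughted libraries of T2. At RW in Mav the aliphatic sum was 1718, 1709, 1622 and 1748 TPM after drought, against 15104, 784, 946, 575 and 1449.5 TPM in controls. A single control, A6c, thus held a sum above every other Mav library, and the other 4 controls lay below all 4 rewatered libraries.

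The 8 indole enzymes were also summed by step. In Mmo at T1 the 4 indole core enzymes summed to 55.4, 36.1 and 55.3 TPM under drought, against 324, 485, 339 and 338 TPM in controls. At T2 they summed to 43, 44.5 and 27.4 TPM under drought, against 101 and 103 TPM in controls. The core sums did not overlap at either time. The 4 Mmo controls of T0 had core sums of 75.96 to 236 TPM, above the droughted libraries of both times.

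The 4 indole side-chain enzymes of Mmo summed to 238, 611 and 219.5 TPM under drought at T1, against 208, 86.98, 211 and 228 TPM in controls, with overlap through M12s and M10c. They summed to 355, 322 and 429 TPM under drought at T2, against 59.3 and 106 TPM in controls, and were higher in all 3 drought libraries. Within this step at T2, AT4G37430 and AT4G37400 rose and AT4G37410 fell in Mmo, and in Mav only AT4G37430 was called, as given below. In Mav at T2 the side-chain enzymes summed to 339.5, 245, 144, 276 and 369 TPM under drought, against 77.4, 188, 43.4, 61.7 and 101 TPM in controls, where the groups overlapped only through A39s and A15c. The core enzymes of Mav at T2 summed to 68.2, 84.8, 101, 86.5 and 66.5 TPM under drought, against 66.6, 196, 34.7, 73.1 and 116 TPM in controls, and all 5 droughted libraries lay within the control range. In Msu at T1 both parts were higher under drought without overlap, the core with 47.96, 69.6 and 140.2 TPM, against 18.9, 23.6, 21.1 and 30.6 TPM in controls, and the side-chain enzymes with 30.98, 27.6 and 28.7 TPM, against 25.1, 15.1, 26.6 and 13.6 TPM in controls. The ratio of the aliphatic to the indole sum was 4.76, 3.96, 5.37, 5.44 and 4.67 in droughted Mav at T2, against 16.8, 19.02, 27.5, 57.96 and 7.83 in controls. The ratio was thus lower in all 5 droughted libraries than in any control. It was also lower without overlap in Mmo at T2 (3.49 to 12.55 under drought and 42.18 to 54.35 in controls). The same held in Msu at T1 (8.38 to 13.46 under drought and 23.37 to 44.42 in controls). The ratios overlapped in Mmo at T1 and in Msu at T2. These sums by step were formed after the values were seen, and they carry no test.

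**Figure D1:**
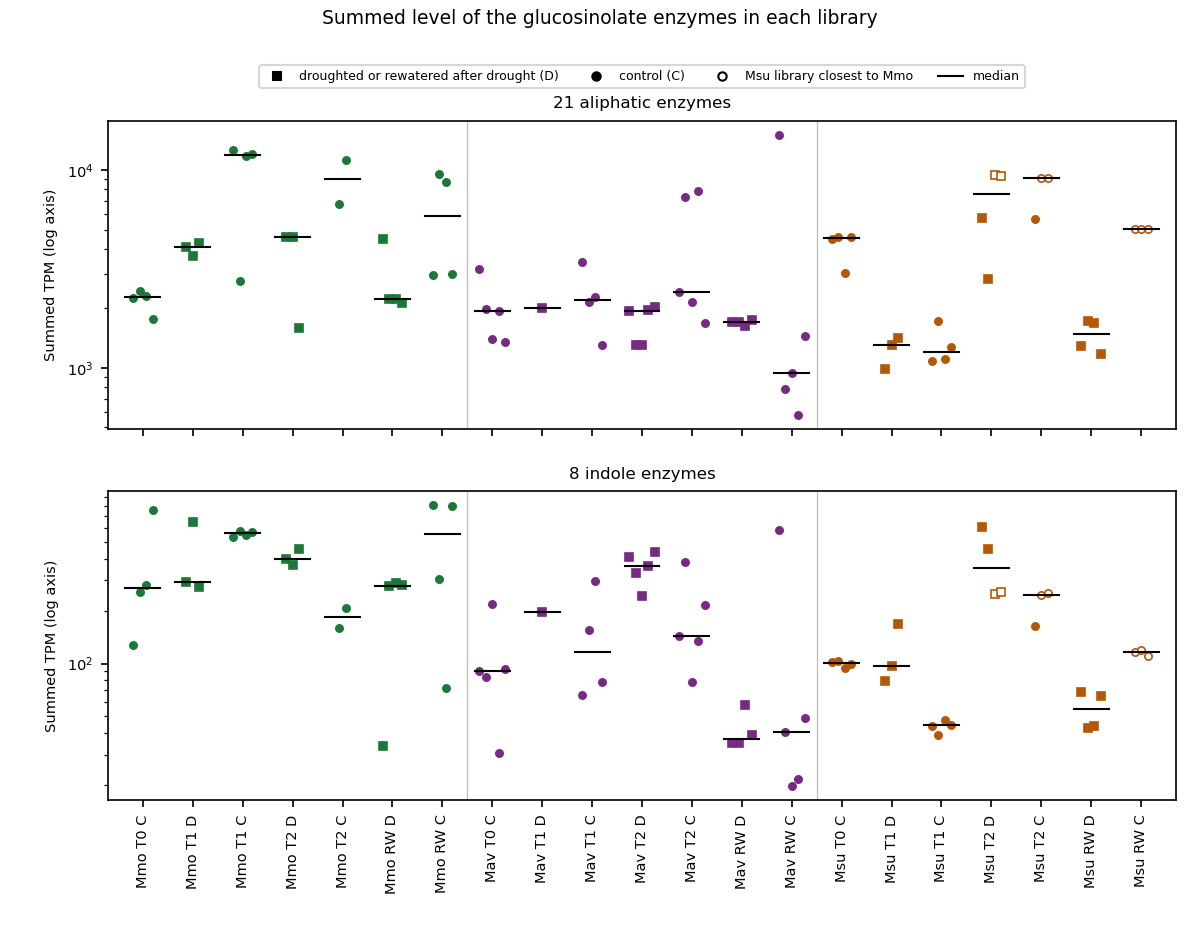
Summed TPM of the 21 aliphatic enzymes and of the 8 indole enzymes on log axes, 1 point per library, by species and time point, with droughted plants left of controls; open points are the 7 Msu libraries that resembled Mmo. The aliphatic sum of the Mav RW control A6c (15104 TPM) stands far above the other 4 controls (575 to 1449.5 TPM), and the 4 near-identical Msu libraries of T2 lie together (9129 to 9439 TPM).

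Moderate drought was tested in Mmo at T1 (drought over control; log2 fold changes carry their standard error, and calls needed an edgeR adjusted p below 0.05 with a log2 fold change beyond 1 in size). Of the 40 genes, 26 fell and 1 rose, where 11.1% of all tested features fell and 6.72% rose. In the drought comparisons, fell and rose mean lower and higher than in the controls of the same time, not than at T0. The median log2 fold change of the 40 genes was -1.87, against -0.02 over all features. In the aliphatic branch 16 of 24 genes fell and none rose (5 of 8 chain elongation, 5 of 6 core and 6 of 7 side-chain genes, and 0 of 3 MYB genes). In the indole branch 7 of 11 fell (all 4 core genes, 1 side-chain gene and 2 MYB genes) and 1 side-chain gene rose.

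Among the aliphatic genes, AT5G23010 had 228, 228 and 253 CPM under drought, against 979, 169, 965 and 992 CPM in controls. The drought libraries lay below 3 controls and above M6c (log2 fold change -1.73 ± 0.56, adjusted p = 0.0494). The core gene AT1G16410 had 94.2, 90.3 and 109 CPM under drought, against 484, 92.8, 520.0 and 533 CPM in controls (log2 fold change -2.07 ± 0.55, adjusted p = 0.0265). AT4G13770, another aliphatic core gene, had 995, 981 and 1026 CPM under drought, against 2486, 1077, 2393 and 2445 CPM in controls (log2 fold change -1.08 ± 0.30, adjusted p = 0.0316). M6c lay within the droughted range of AT1G16410 and just above that of AT4G13770, while the other 3 controls lay far above it in both.

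The largest called aliphatic decreases were those of AT5G14200 in chain elongation (log2 fold change -2.59 ± 0.64, adjusted p = 0.0207), SOT17 in the core (log2 fold change -2.30 ± 0.34, adjusted p = 0.0027), AT4G12030 in chain elongation (log2 fold change -2.25 ± 0.56, adjusted p = 0.0211) and AT2G31790 in the core (log2 fold change -2.19 ± 0.41, adjusted p = 0.00713). SOT17 had 18.1, 15.6 and 20.1 CPM under drought, against 108, 41.1, 95.9 and 106 CPM in controls. SOT17 thus stayed below every control, M6c included. The groups of AT2G31790 did not overlap either (124 to 136 CPM under drought and 220.5 to 735 CPM in controls), while those of AT5G14200 and AT4G12030 overlapped through M6c.

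The 4 indole core genes fell with a median log2 fold change of -3.42, against -1.99 over the 6 aliphatic core genes. AT4G39950 had 3.65, 0.995 and 2.75 CPM under drought, against 88.96, 165, 97.6 and 97.8 CPM in controls (log2 fold change -5.54 ± 0.53, adjusted p = 5.3e-04). CYP79B3 had 0.0483, 0 and 0.305 CPM under drought, against 0.985, 2.83, 1.07 and 1.43 CPM in controls (log2 fold change -3.75 ± 0.95, adjusted p = 0.0221). CYP83B1, also of the indole core, had 24.6, 18.97 and 24.1 CPM under drought, against 143, 281, 167 and 166 CPM in controls (log2 fold change -3.09 ± 0.29, adjusted p = 5.0e-04). M6c was the highest control in all 3 indole genes, the opposite of its place in the aliphatic genes.

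The side-chain genes of the indole branch split. AT4G37410 fell (4.81, 4.33 and 6.33 CPM under drought, against 168, 87.5, 172 and 190.0 CPM in controls, log2 fold change -4.92 ± 0.33, adjusted p = 1.6e-04) and AT4G37430 rose (175, 514 and 155 CPM under drought, against 9.39, 1.32, 10.4 and 9.70 CPM in controls, log2 fold change 5.17 ± 0.76, adjusted p = 0.00273). Neither gene had overlapping groups. The 2 genes and AT4G37400 are close paralogs, so reads of 1 Moricandia gene may be split between them. Summed, the 3 had a log2 fold change of 0.82 and no call.

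The indole MYB gene AT5G60890 had the largest decrease of all members. It had 0.0483, 0.0231 and 0.0763 CPM under drought, which are 2, 1 and 3 counts, against 25.6, 50.4, 22.5 and 20.6 CPM in controls (log2 fold change -9.18 ± 0.59, adjusted p = 1.5e-04). The indole MYB gene AT1G74080 also fell, to 0.0966, 0.255 and 0.331 CPM under drought, against 2.18, 2.19, 1.25 and 2.27 CPM in controls (log2 fold change -3.12 ± 0.45, adjusted p = 0.00267). The third, AT1G18570, was not called (log2 fold change -0.21 ± 0.25, adjusted p = 0.559), nor were the aliphatic regulators AT5G61420 (log2 fold change -0.18 ± 0.45, adjusted p = 0.775), AT5G07690 (log2 fold change -1.66 ± 0.79, adjusted p = 0.145) and AT5G07700 (log2 fold change 0.37 ± 0.58, adjusted p = 0.657).

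Of the genes that serve both branches, AT2G20610 had 72.8, 63.95 and 72.1 CPM under drought, against 336, 127, 315 and 310.5 CPM in controls (log2 fold change -1.98 ± 0.33, adjusted p = 0.00458). UGT74B1 had 35.98, 34.1 and 34.6 CPM under drought, against 134, 99.05, 129 and 128 CPM in controls (log2 fold change -1.83 ± 0.14, adjusted p = 2.3e-04). The transporter AT3G47960 fell by a smaller step (log2 fold change -1.07 ± 0.17, adjusted p = 0.00341) and the transporter AT5G62680 was not called (log2 fold change 0.46 ± 0.28, adjusted p = 0.251). A further 27 genes, called further pathway genes below, were of the pathway, of its sulfur and amino acid supply or of its regulation. At T1 in Mmo 22 of them were tested, of which 12 fell and 2 rose. The largest of these changes were in AT1G76790 (14.02 to 36.5 CPM under drought and 450.0 to 580.3 CPM in controls, log2 fold change -4.21 ± 0.37, adjusted p = 3.9e-04), AT1G31180 (log2 fold change -2.54 ± 0.70, adjusted p = 0.03) and AT4G03070 (log2 fold change -2.35 ± 0.30, adjusted p = 0.0017).

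The counts at T1 in Mmo moved with single libraries. Without M6c 31 genes were called (1 higher and 30 lower), and without M5c, M9c, M10c, M7s, M8s and M12s the number called was 15, 17, 17, 12, 14 and 13. With near-identical libraries summed (M7s with M12s, M9c with M10c) it was 9. AT5G23010, AT1G16410 and AT4G13770 each lost their call without any of M5c, M9c, M10c, M7s, M8s or M12s, AT4G12030 without M5c, M7s, M8s or M12s, AT5G14200 without M7s, M8s or M12s, and CYP79B3 without M7s. Leaf mesophyll markers summed to between 9068 and 9514 CPM under drought and between 10940 and 27573 CPM in controls, and senescence markers to between 58.1 and 186.3 CPM under drought and between 5.87 and 7.72 CPM in controls. Their part in these results was not tested.

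Severe drought in Mmo (T2) gave the same direction for most members but few calls. Of 39 tested genes 3 fell and 2 rose, where 2.27% of all features fell and 2.21% rose (4.49% in either direction). The median log2 fold change was -1.39 over the members and 0.02 over all features. Of 24 aliphatic genes, 23 had a negative log2 fold change and lay below both controls in all 3 drought libraries, where 22.9% of all features did so, but only AT5G14200 was called. In the indole branch AT4G37430 and AT4G37400 rose and AT4G37410 fell, of 10 tested.

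AT5G14200 had 75.3, 79.2 and 44.2 CPM under drought, against 381 and 849.5 CPM in the controls M14c and M16c (log2 fold change -3.22 ± 0.44, adjusted p = 0.0248). AT2G20610, the called core gene of both branches, had 82.4, 78.2 and 50.96 CPM under drought, against 198 and 338 CPM in controls (log2 fold change -1.93 ± 0.33, adjusted p = 0.0393). M20s was the lowest library in both genes.

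AT4G37430 had 337, 300.5 and 394 CPM under drought, against 15.4 and 21.4 CPM in controls (log2 fold change 4.22 ± 0.30, adjusted p = 0.0125). AT4G37400 had 46.9, 44.5 and 31.98 CPM under drought, against 12.97 and 15.4 CPM in controls (log2 fold change 1.53 ± 0.24, adjusted p = 0.0338). AT4G37410 had 7.04, 6.59 and 8.03 CPM under drought, against 26.5 and 61.99 CPM in controls (log2 fold change -2.62 ± 0.37, adjusted p = 0.0253). The split between these 3 side-chain paralogs at T2 ran the same way as at T1 for AT4G37430 and AT4G37410, and their sum had a log2 fold change of 2.34.

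The other key genes of Mmo at T2 stayed under the call threshold. AT5G23010 had 298, 296 and 88.2 CPM under drought, against 611 and 856 CPM in controls (log2 fold change -1.70 ± 0.55, adjusted p = 0.141). AT1G16410 had 158, 161 and 37.04 CPM under drought, against 226 and 463 CPM in controls (log2 fold change -1.54 ± 0.66, adjusted p = 0.234). AT4G13770 had 1066, 1056 and 211 CPM under drought, against 1362 and 2384 CPM in controls (log2 fold change -1.27 ± 0.71, adjusted p = 0.343). The 3 droughted libraries were below both controls in each of these genes, with M20s far below the near-identical M17s and M19s.

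In the indole core at T2, AT4G39950 had 4.16, 5.20 and 1.38 CPM under drought, against 17.4 and 5.99 CPM in controls (log2 fold change -1.71 ± 0.67, adjusted p = 0.201). CYP79B3 had no count in the 3 drought libraries, against 0.502 and 0.0927 CPM in controls, and was not tested. The control values were 16 and 3 counts, too few to bound a fold. A count of 0 can go with a TPM above 0 in these files (a median of 2656 features per library), and M17s was listed at 0.0104 TPM for AT2G22330. CYP83B1 had 17.4, 17.3 and 9.16 CPM under drought, against 40 and 33.5 CPM in controls (log2 fold change -1.34 ± 0.32, adjusted p = 0.0757).

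Among the Mmo regulators at T2, none was called. AT5G61420 had 41.05, 43.5 and 30.7 CPM under drought, against 75.8 and 131 CPM in controls (log2 fold change -1.44 ± 0.29, adjusted p = 0.0559). AT5G07690 had 19.5, 20.97 and 7.27 CPM under drought, against 62.6 and 45.5 CPM in controls (log2 fold change -1.77 ± 0.46, adjusted p = 0.0923). AT5G60890 had 0.318, 0.454 and 1.82 CPM under drought, against 5.56 and 5.31 CPM in controls (log2 fold change -2.68 ± 0.76, adjusted p = 0.11). All 3 genes were below both controls in every droughted library. AT1G74080 (log2 fold change -1.28 ± 0.70, adjusted p = 0.336), AT1G18570 (log2 fold change 0.33 ± 0.36, adjusted p = 0.629), AT5G07700 (log2 fold change -0.62 ± 0.44, adjusted p = 0.455) and the transporters AT3G47960 (log2 fold change -0.29 ± 0.29, adjusted p = 0.596) and AT5G62680 (log2 fold change -0.30 ± 0.36, adjusted p = 0.662) were not called either.

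The number of members called at T2 in Mmo was 18 without M20s, 1 without M17s or M19s and 0 without M14c or M16c, and DESeq2 called 19 (2 higher and 17 lower, where it called 6.49% of all features higher and 5.96% lower). The calls of AT5G14200, AT4G37400, AT4G37410 and AT2G20610 were lost without any of M14c, M16c, M17s and M19s, and that of AT4G37430 without either control. Of 22 further pathway genes, 3 fell: AT1G31180 (11.5 to 24.8 CPM under drought and 134 to 267 CPM in controls, log2 fold change -3.36 ± 0.45, adjusted p = 0.0235), AT3G03190 (log2 fold change -1.85 ± 0.31, adjusted p = 0.0383) and AT1G04770 (log2 fold change -1.51 ± 0.16, adjusted p = 0.0159). Drought markers summed to between 4553 and 5099 CPM under drought, against 355.6 and 1022 CPM in controls. Leaf mesophyll markers summed to between 6459 and 13498 CPM under drought, against 17064 and 19699 CPM in controls, and senescence markers to between 23.5 and 30.1 CPM under drought, against 7.51 and 8.77 CPM in controls. Their part in these results was not tested.

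**Figure D2:**
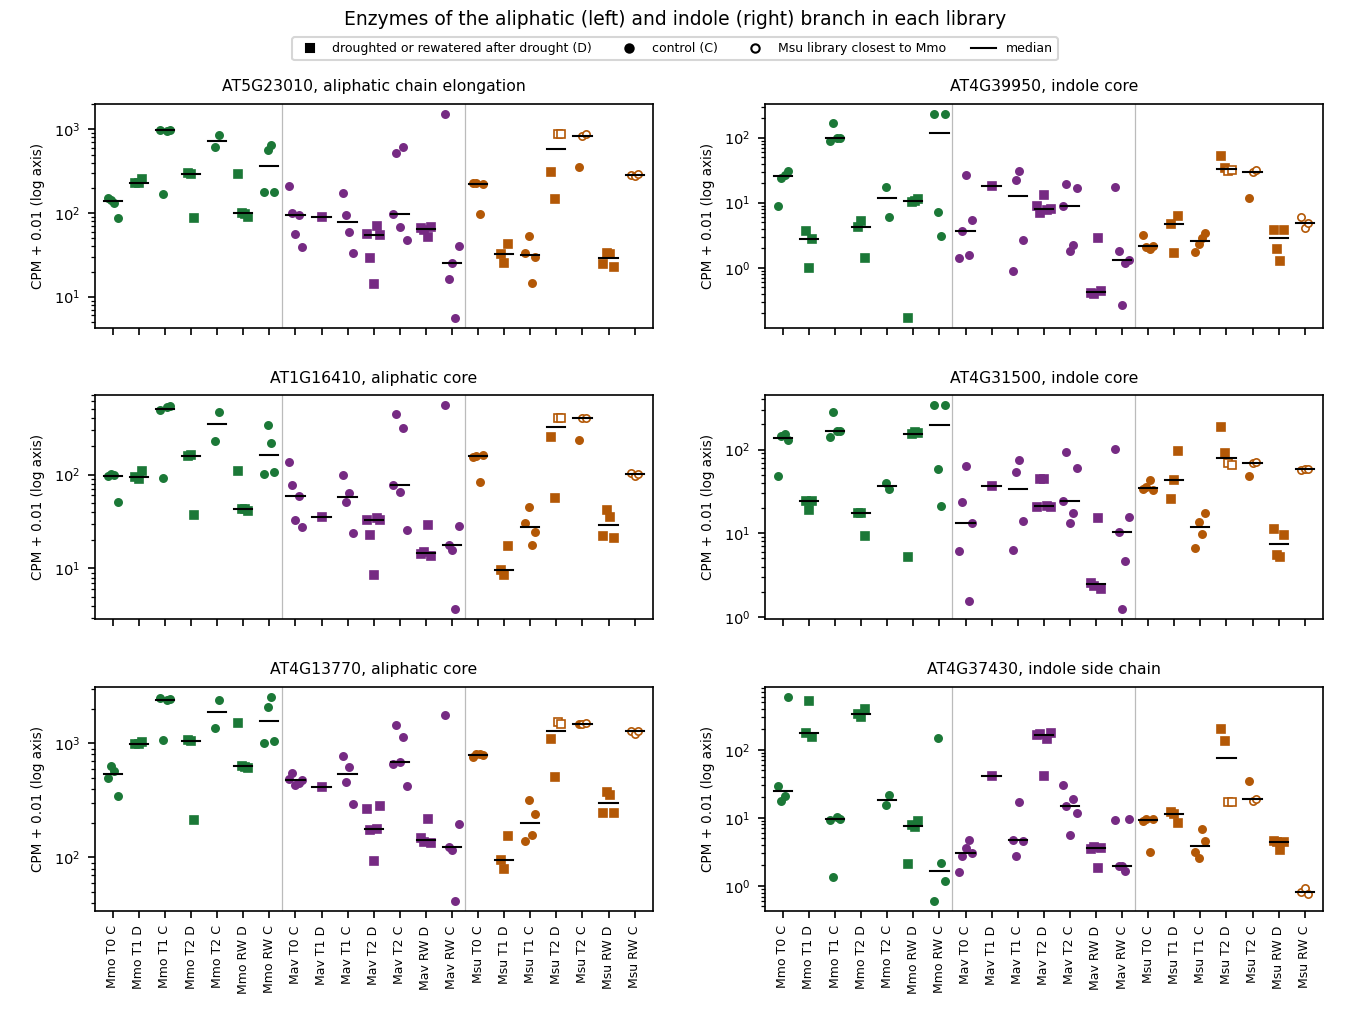
CPM of 3 aliphatic genes (AT5G23010, AT1G16410 and AT4G13770) and 3 indole genes (AT4G39950 and AT4G31500 of the core and AT4G37430 of side-chain modification) on log axes, 1 point per library, by species and time point, with droughted plants left of controls; open points are the 7 Msu libraries that resembled Mmo, and an offset of 0.01 CPM keeps values of 0 on the axis. In Mmo at T1 both indole core genes of droughted plants lie below all 4 controls and AT4G37430 lies above them, while in the aliphatic genes M6c joins the droughted libraries.

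In Mav at T2 the called decreases were in the aliphatic branch and in 2 core genes that serve both branches. Of 39 tested genes 16 fell and 3 rose, where 16.6% of all features fell and 11.6% rose. Of 23 aliphatic genes 14 fell (6 of 8 chain elongation, 5 of 6 core and 2 of 7 side-chain genes and 1 of 2 tested MYB genes) and 2 rose, with a median log2 fold change of -2.05. Of 11 indole genes none fell and 1 rose, with a median of -0.38, and the median over all features was -0.01. The controls A15c and A16c held the highest aliphatic values, so that only 2 of the 23 aliphatic genes were lower in all 5 drought libraries than in all 5 controls, where 16.6% of all features were.

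AT5G23010 had 55.8, 28.9, 14.1, 70.3 and 54.4 CPM under drought, against 96.6, 524, 67.2, 624 and 48.1 CPM in controls (log2 fold change -2.63 ± 0.76, adjusted p = 0.0159). AT1G16410 had 32.9, 22.6, 8.52, 34.3 and 33 CPM under drought, against 76.8, 444, 65.6, 312 and 25.5 CPM in controls (log2 fold change -2.83 ± 0.72, adjusted p = 0.00862). In both genes A15c and A16c were the high controls and A22c lay within the droughted range. AT4G13770 had 263, 176, 93.2, 177 and 279.9 CPM under drought, against 658, 1449.5, 693, 1135 and 421 CPM in controls (log2 fold change -2.15 ± 0.38, adjusted p = 0.00102).

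The largest called aliphatic decreases in Mav were those of the chain elongation genes AT2G43100 (log2 fold change -3.03 ± 0.65, adjusted p = 0.00315) and AT5G14200 (log2 fold change -2.89 ± 0.53, adjusted p = 0.00117), the core gene AT1G16400 (log2 fold change -2.95 ± 0.74, adjusted p = 0.00793) and the side-chain gene AT4G03050 (log2 fold change -2.90 ± 1.03, adjusted p = 0.0404). AT5G14200 had 42.6, 36.1, 23.2, 46.4 and 39.99 CPM under drought, against 181, 277, 129.8, 698 and 86.3 CPM in controls. AT5G14200 and AT4G13770 were the 2 aliphatic genes that fell without overlap. The 2 aliphatic genes that rose, named after their values were seen, were the core gene AT1G74090 (log2 fold change 1.12 ± 0.31, adjusted p = 0.0127) and the side-chain gene AT1G12140 (log2 fold change 1.03 ± 0.25, adjusted p = 0.00677).

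The indole core did not pass the test in Mav at T2. AT4G39950 had 9.03, 7.01, 13.1, 7.81 and 8.07 CPM under drought, against 8.79, 19.7, 1.80, 2.25 and 17.1 CPM in controls (log2 fold change -0.14 ± 0.58, adjusted p = 0.862). CYP79B3 had 0.879, 1.02, 4.70, 1.15 and 0.731 CPM under drought, against 1.15, 7.67, 0.116, 0.0356 and 4.16 CPM in controls (log2 fold change -0.64 ± 1.04, adjusted p = 0.655). CYP83B1 (AT4G31500) had 20.6, 44.6, 44.9, 21.3 and 20.5 CPM under drought, against 24.02, 93.2, 13.3, 17.6 and 60.8 CPM in controls (log2 fold change -0.46 ± 0.52, adjusted p = 0.503). All 5 droughted libraries lay within the range of the controls in these 3 genes.

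The called indole gene of Mav was the side-chain gene AT4G37430, with 166, 171, 41.6, 144 and 178 CPM under drought, against 30.4, 15.2, 5.67, 19.2 and 11.7 CPM in controls (log2 fold change 3.09 ± 0.48, adjusted p = 4.4e-04). Its groups did not overlap. The shared core genes AT2G20610 (27.9, 31.1, 32.4, 41.96 and 28.2 CPM under drought, against 132, 250.2, 81.2, 248 and 96.7 CPM in controls, log2 fold change -2.34 ± 0.33, adjusted p = 2.5e-04) and UGT74B1 (15.8 to 29.4 CPM under drought and 30.4 to 115 CPM in controls, log2 fold change -1.40 ± 0.38, adjusted p = 0.0115) fell without overlap.

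Among the Mav regulators, AT5G61420 had 19.4, 3.59, 14.4, 10.2 and 21.5 CPM under drought, against 23.99, 30.9, 70.5, 83.2 and 9.94 CPM in controls (log2 fold change -1.68 ± 0.58, adjusted p = 0.0361). AT5G07690 had 8.43, 0.512, 1.14, 6.05 and 8.42 CPM under drought, against 6.77, 54.3, 9.24, 71.2 and 2.22 CPM in controls (log2 fold change -2.58 ± 0.98, adjusted p = 0.0539). AT5G07700 was too low to be tested. The indole regulators AT5G60890 (log2 fold change -1.15 ± 0.74, adjusted p = 0.233), AT1G18570 (log2 fold change -0.64 ± 0.28, adjusted p = 0.0846) and AT1G74080 (log2 fold change -0.99 ± 0.51, adjusted p = 0.142) and the transporters AT3G47960 (log2 fold change 0.18 ± 0.31, adjusted p = 0.671) and AT5G62680 (log2 fold change -0.76 ± 0.39, adjusted p = 0.136) were not called.

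The number called in Mav at T2 was between 13 and 19 when a library was left out, and 13 without A16c or A39s. The call of AT5G61420 was lost without A24c, A16c, A35s, A39s or A37s, and that of AT4G03050 without A15c, A16c or any of the 5 drought libraries. Leaf mesophyll markers summed to between 4574 and 9337 CPM under drought and between 15908 and 27967 CPM in controls, senescence markers to between 81.9 and 689.5 CPM under drought and between 40.9 and 68.2 CPM in controls, and root markers to between 2.0 and 3.72 CPM under drought and between 0 and 0.118 CPM in controls. Their part in the decrease was not tested. Of 21 further pathway genes 8 fell and 1 rose, with AT1G31180 (1.89 to 8.42 CPM under drought and 17.3 to 144 CPM in controls, log2 fold change -3.40 ± 0.66, adjusted p = 0.00168), AT1G76790 (log2 fold change -3.33 ± 1.14, adjusted p = 0.0351) and AT4G39940 (log2 fold change -2.55 ± 0.69, adjusted p = 0.0116) the largest.

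The T1 drought group of Mav was 1 library (A34s), so its values carry no test. Of 24 aliphatic genes 3 lay above all 4 controls, 2 below and 19 within their range, and of 11 indole genes 3 lay above, 2 below and 6 within, while 28.9% of all features with 1 CPM or more in any of these libraries lay above and 29.9% below. AT4G37430, the indole side-chain gene, had 40.9 CPM in A34s, against 4.65, 2.74, 16.8 and 4.64 CPM in controls. AT5G23010 had 89.2 CPM in A34s, against 174, 95.5, 59.5 and 33.3 CPM in controls. The aliphatic gene was thus within the control range.

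Whether the response at T2 differed between Mmo and Mav was tested as an interaction (the Mmo response minus that of Mav). Of 40 genes 2 were called, both with a lower response in Mmo, where 2.43% of all features were called lower and 2.76% higher (5.19% in either direction). The number of members called was thus no larger, as a share, than that of all features. They were the aliphatic side-chain gene AT1G12140 (log2 fold change -1.93 ± 0.50, adjusted p = 0.0376) and the indole side-chain gene AT4G37410 (log2 fold change -3.78 ± 0.83, adjusted p = 0.0186). AT1G12140 had 66.9, 69.9 and 26.6 CPM under drought, against 115 and 84.7 CPM in controls in Mmo. In Mav AT1G12140 had 167, 73.6, 93.4, 111 and 183 CPM under drought, against 52.7, 75.7, 50.2, 67.5 and 59.7 CPM in controls.

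AT4G37410 had 3.96, 5.64, 1.84, 1.73 and 4.33 CPM under drought in Mav, against 0.994, 3.72, 0.668, 0.606 and 1.85 CPM in its controls, while it fell in Mmo. With the 3 close paralogs summed, the interaction was 0.76 and not called. The call of AT1G12140 was lost without any 1 of A9c, A24c, A28s, A44s, M14c, M16c, M17s, M19s and M20s, and that of AT4G37410 without M16c, M17s or M19s. No call was left without M16c, M17s or M19s, and 1 without A9c, A24c, A28s, A44s, M14c or M20s. The aliphatic genes had a median interaction of 0.79 and the indole genes of -1.02, and neither AT5G23010 (log2 fold change 0.92 ± 1.18, adjusted p = 0.713) nor AT4G39950 (log2 fold change -1.59 ± 1.01, adjusted p = 0.397) was called. Of 24 further pathway genes AT1G04770 was called lower (log2 fold change -2.77 ± 0.48, adjusted p = 0.00622).

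In Msu no member was called at T1 or T2. At T1, 0 of 36 tested genes passed (edgeR, 12 at an unadjusted p under 0.05, and DESeq2 called 6), where 0.137% of all features rose and 0.0305% fell. At T2, 0 of 40 passed (1 at an unadjusted p under 0.05, and DESeq2 called 0), and 0% of all features were called. The T2 comparison held the 4 near-identical libraries, S5s and S8s under drought and S33c and S36c in controls.

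At T1 in Msu, AT5G23010 had 32.3, 25.1 and 42.9 CPM under drought, against 33.1, 52.8, 14.7 and 29.9 CPM in controls (log2 fold change 0.07 ± 0.39, adjusted p = 0.95). CYP83B1 (AT4G31500) had 26.02, 43.7 and 96.2 CPM under drought, against 6.69, 13.7, 9.75 and 17.3 CPM in controls (log2 fold change 2.26 ± 0.46, adjusted p = 0.0688). AT5G61420 had 10.7, 6.91 and 15.2 CPM under drought, against 39.4, 67.7, 23.6 and 48.8 CPM in controls (log2 fold change -2.0 ± 0.41, adjusted p = 0.0688). All 3 drought libraries were above the controls in CYP83B1 and below them in AT5G61420, without reaching the threshold. Leaving out S10s gave 1 call, and leaving out any other library gave none.

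At T2 in Msu, AT5G23010 had 311, 145, 869.7 and 871 CPM in S2s, S4s, S5s and S8s under drought, against 352, 844 and 874 CPM in S28c, S33c and S36c. AT4G39950 had 52.6, 33.6, 31.1 and 31.6 CPM under drought, against 11.6, 29.7 and 31.7 CPM in controls. S2s and S4s, which held drought markers at 4179 and 5842 CPM, differed from S5s and S8s, which held 321.2 and 320.3 CPM.

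Set against the Msu controls of T0 and T1 instead, the 4 droughted Msu libraries of T2 had 17 of 39 genes higher and 0 lower, where 7.2% of all features were higher and 3.59% lower. Without S5s and S8s, a choice made after seeing the data, 12 were higher and 0 lower (8.83% and 8.63% of all features). Without all 4 near-identical libraries, likewise chosen after seeing the data, 1 T2 control was left and 0 genes were called. These controls were of other sampling times and of lane 3, against lane 4 for the T2 libraries, so treatment, time and lane cannot be told apart.

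After rewatering, Mmo had 1 called member of 39, where 0.0669% of all features rose and 0.113% fell. It was SOT17, with 19.8, 19.4, 20.9 and 19.2 CPM after drought, against 45.4, 64.8, 40.5 and 45.3 CPM in controls (log2 fold change -1.32 ± 0.16, adjusted p = 0.0416). All 4 rewatered libraries were below all 4 controls. The rewatered libraries were all sequenced on lane 7 and the controls on lane 6, so lane and treatment cannot be told apart. Its call was lost without M21c, M24c, M26s, M27s or M28s, which left 0 members called, while 3 were called without M22c and 9 without M25s. Of 22 further pathway genes AT4G39940 fell (19.1 to 32.5 CPM after drought and 72.7 to 84.5 CPM in controls, log2 fold change -1.52 ± 0.17, adjusted p = 0.0352).

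M25s stood apart from the other 3 rewatered Mmo libraries, which were near-identical. AT5G23010 had 296, 101, 98.6 and 88.9 CPM after drought, against 179, 560.5, 658 and 177 CPM in controls (log2 fold change -1.43 ± 0.59, adjusted p = 0.237). AT4G39950 had 0.162, 10.3, 10.5 and 11.4 CPM after drought, against 229.9, 7.12, 3.06 and 233 CPM in controls (log2 fold change -3.89 ± 1.58, adjusted p = 0.233). M25s, the first value in each gene, was the highest rewatered library in the aliphatic gene and the lowest in the indole gene, and the controls split the same way: M21c and M24c, with seed markers, were low in AT5G23010 and high in AT4G39950. AT5G60890 had 0.355, 0.169, 0.293 and 0.0824 CPM after drought, against 53.4, 0.118, 0.273 and 52.7 CPM in controls (log2 fold change -6.91 ± 1.98, adjusted p = 0.136).

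In Mav after rewatering, 1 of 37 genes was called, where 0.173% of all features rose and 0.0917% fell. It was the transporter AT5G62680, with 150.3, 136, 182 and 143 CPM after drought, against 74.1, 63.02, 69.5, 50.8 and 55.5 CPM in controls (log2 fold change 1.30 ± 0.17, adjusted p = 0.0221). Its call was lost without A8c, A30s, A38s or A42s, which left 0 members called. The median log2 fold change of the members was -2.09, and 0.40 without the control A6c, when 2 genes were called. A fit over all 78 libraries called 1 member higher and 15 lower.

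AT5G23010 had 65.7, 63.04, 51.97 and 67.5 CPM after drought, against 1539, 16.3, 25.6, 5.62 and 40.5 CPM in controls (log2 fold change -2.41 ± 1.50, adjusted p = 0.408). A6c, the first control, exceeded every other control, and the other 4 lay below the 4 rewatered libraries. AT4G13770 had 148, 136, 217 and 134 CPM after drought, against 1762, 123, 116, 41.9 and 195 CPM in controls (log2 fold change -1.51 ± 0.98, adjusted p = 0.425).

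In Msu after rewatering, 22 of 39 genes were lower and 5 higher, where 15.9% of all features were lower and 15.6% higher, but all 3 controls resembled Mmo, so treatment and species identity cannot be told apart. Of 24 aliphatic genes 18 were lower and 1 higher, and of 10 indole genes 3 were lower and 4 higher. AT5G23010 had 24.6, 33.03, 32.7 and 22.4 CPM after drought, against 283, 277 and 293 CPM in those controls (log2 fold change -3.37 ± 0.15, adjusted p = 1.0e-06). Against the Msu controls of T0 and T1, its log2 fold change was -2.03 and it was not called.

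Other large differences in that comparison were those of the aliphatic regulator AT5G07700 (log2 fold change -5.84 ± 0.30, adjusted p = 2.0e-06), the chain elongation gene AT4G12030 (log2 fold change -4.12 ± 0.17, adjusted p = 6.9e-07) and AT5G23020 (log2 fold change -3.35 ± 0.19, adjusted p = 3.1e-06), the indole side-chain gene AT4G37410 (log2 fold change -6.01 ± 0.44, adjusted p = 1.1e-05), the indole regulator AT5G60890 (log2 fold change -3.63 ± 0.48, adjusted p = 2.5e-04) and CYP83B1 (log2 fold change -2.95 ± 0.26, adjusted p = 3.1e-05). Against the T0 and T1 controls 5 of 37 members were lower and 0 higher (3.08% and 2.59% of all features), among them AT4G12030 (-2.08) and CYP83B1 (-1.65). AT4G37430, higher by a log2 fold change of 2.30 (3.38 to 4.50 CPM after drought and 0.745 to 0.925 CPM in controls), and AT1G18570, higher by 1.44, had log2 fold changes of -0.55 and -0.98 against those controls. Of 24 further pathway genes 12 were lower and 3 higher with the RW controls, such as AT1G76790 (0.0299 to 0.370 CPM after drought and 59.2 to 61.3 CPM in controls), AT2G25450 (log2 fold change -5.71 ± 0.22, adjusted p = 5.2e-07) and AT5G05260 (0 to 0.0401 CPM after drought and 3.32 to 3.57 CPM in controls).

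Mmo and Mav were compared before drought. The species shared no lane at T0, nor did droughted Mmo and Mav at T2, so species and lane cannot be told apart there. Reads of every species were mapped to Arabidopsis sequences, so between species expression and mapping cannot be told apart either. At T0, 7 of 39 genes were upregulated in Mmo and 3 downregulated, where 14.4% of all features were higher in Mmo and 17.4% lower (31.8% in either direction). The number of members called was thus no larger, as a share, than that of all features. Of 11 indole genes 4 were higher and none lower (median log2 fold change 0.89), and of 23 aliphatic genes 2 were higher and 3 lower (median 0.37).

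The indole side-chain gene AT4G37430 had 29.2, 17.6, 21.1 and 602 CPM in Mmo, against 1.57, 2.76, 3.66, 4.67 and 3.08 CPM in Mav (log2 fold change 5.76 ± 1.12, adjusted p = 0.00204). The high Mmo value is that of M12c, whose senescence markers stood at 3998 CPM, and without it the log2 fold change was 2.85. The other Mmo libraries also lay above all Mav libraries. AT5G57220, of the same step, had 8.08, 21.6, 21.1 and 6.47 CPM in Mmo, against 0.786, 0.750, 1.40, 0.235 and 1.47 CPM in Mav (log2 fold change 3.96 ± 0.54, adjusted p = 2.7e-04). AT4G37410 (log2 fold change 3.61 ± 1.23, adjusted p = 0.0348) was called with overlap (log2 fold change 0.01 and no call without M12c), and so was CYP83B1 (AT4G31500) with 48.4, 144, 154 and 130.5 CPM in Mmo, against 6.07, 23.5, 64.4, 1.55 and 13.4 CPM in Mav (log2 fold change 2.47 ± 0.81, adjusted p = 0.0305).

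Among the aliphatic genes at T0, AT1G12140 had 96.6, 86.5, 91.2 and 87.5 CPM in Mmo, against 26.9, 32.1, 39, 42.2 and 50.1 CPM in Mav (log2 fold change 1.27 ± 0.19, adjusted p = 4.0e-04). IPMI1 had 0.766, 1.27, 1.17 and 2.01 CPM in Mmo, against 4.66, 2.90, 5.05, 2.89 and 4.45 CPM in Mav (log2 fold change -1.60 ± 0.35, adjusted p = 0.00421). The groups of both genes did not overlap. SOT17 (log2 fold change 1.44 ± 0.38, adjusted p = 0.0113) was higher in Mmo, as was the shared core gene AT2G20610 (log2 fold change 1.12 ± 0.25, adjusted p = 0.00493). The regulators AT5G61420 (log2 fold change -1.19 ± 0.38, adjusted p = 0.0261) and AT5G07690 (log2 fold change -1.12 ± 0.38, adjusted p = 0.0323) were lower in Mmo, while AT5G23010 (log2 fold change 0.37 ± 0.42, adjusted p = 0.496), AT1G16410 (log2 fold change 0.39 ± 0.44, adjusted p = 0.495) and AT4G13770 (log2 fold change 0.12 ± 0.20, adjusted p = 0.661) were not called.

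Without A48 6 members were called between Mmo and Mav at T0. AT2G20610 lost its call without A48 or M12c, CYP83B1 without A1, A4, A48, M3s, M4s or M12c, AT4G37410 without A1, A4, A46, A48 or M12c (log2 fold change 0.01 at its lowest), AT5G07690 without A1, A4, A46, M1c, M4s or M12c, and AT5G61420 without A46, A48, M4s or M12c. Of 24 further pathway genes 8 were higher in Mmo and 2 lower. AT1G21120 had 25.7 to 67.2 CPM in Mmo and 0 to 0.654 CPM in Mav (log2 fold change 7.71 ± 0.75, adjusted p = 4.0e-05), AT1G21100 had 47.8 to 112 CPM in Mmo and 0.101 to 1.28 CPM in Mav (log2 fold change 7.38 ± 0.63, adjusted p = 2.0e-05), and AT1G65880 was at 0 in all 4 Mmo libraries and at 0.273 to 2.91 CPM in Mav (adjusted p = 0.00144).

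Against Msu at T0, the called indole genes were higher in Mmo and all but 1 of the called aliphatic genes lower. Of 39 genes 8 were upregulated and 7 downregulated in Mmo, where 15.4% of all features were higher and 16.9% lower. Of 11 indole genes 6 were higher and none lower (median log2 fold change 1.72), and of 23 aliphatic genes 1 was higher and 7 lower (median -0.61). The Mmo libraries are those of the comparison with Mav. Msu is tetraploid, and the study kept its quantitative comparisons to the diploids Mmo and Mav because its pipeline had not addressed ploidy. Species and ploidy cannot be told apart here.

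AT4G39950 had 8.97, 24.4, 26.9 and 30.4 CPM in Mmo, against 3.14, 2.11, 1.95 and 2.14 CPM in Msu (log2 fold change 3.28 ± 0.38, adjusted p = 1.4e-04). AT5G57220 had 6.47 to 21.6 CPM in Mmo and 0.216 to 0.590 CPM in Msu (log2 fold change 5.10 ± 0.53, adjusted p = 8.3e-05), and AT4G37410 (log2 fold change 5.36 ± 1.54, adjusted p = 0.0182) and AT4G37430 (log2 fold change 4.42 ± 1.24, adjusted p = 0.016) were also higher. Without M12c, whose senescence markers stood at 3998 CPM, these log2 fold changes were 1.81 and 1.55, both still called. The 4 genes did not overlap between the species, where 21.5% of all features were higher without overlap. CYP83B1 (log2 fold change 1.72 ± 0.32, adjusted p = 0.0022) and the regulator AT1G74080 (log2 fold change 1.95 ± 0.63, adjusted p = 0.0286) were the other called indole genes.

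On the aliphatic side, AT5G07690 had 6.93, 12.9, 9.34 and 6.84 CPM in Mmo, against 50.5, 48.9, 25.8 and 50.1 CPM in Msu (log2 fold change -2.28 ± 0.29, adjusted p = 2.7e-04). AT5G61420 had 41.4, 36, 32.2 and 9.98 CPM in Mmo, against 81.3, 77.1, 86.8 and 82.03 CPM in Msu (log2 fold change -1.44 ± 0.36, adjusted p = 0.00964). Both aliphatic regulators were lower in all Mmo libraries. The chain elongation genes AT3G19710 (log2 fold change -1.55 ± 0.31, adjusted p = 0.00315) and AT5G14200 (log2 fold change -2.30 ± 0.66, adjusted p = 0.0185) were lower in Mmo too, and the transporter AT5G62680 was higher, with 287, 94.7, 105 and 115 CPM in Mmo, against 41.01, 41.5, 55.8 and 43.4 CPM in Msu (log2 fold change 1.74 ± 0.35, adjusted p = 0.00331).

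AT4G37410 lost its call without S43, AT5G14200 without M1c or M3s, and AT1G74080 without S38, S39, S43, M4s or M12c. The Msu libraries S38, S39 and S43 were near-identical, and with near-identical libraries summed 3 members were called. Of 23 further pathway genes 5 were higher in Mmo and 6 lower, led by AT1G76790 (11.8 to 116 CPM in Mmo and 0.0289 to 0.0933 CPM in Msu, log2 fold change 10.13 ± 0.89, adjusted p = 3.6e-05), AT1G21100 (log2 fold change 7.91 ± 0.52, adjusted p = 9.3e-06) and AT1G21120 (log2 fold change 7.45 ± 0.53, adjusted p = 1.3e-05).

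Between the C2 species at T0, 1 of 39 genes was higher in Mav and 9 lower, where 7.77% of all features were higher and 6.7% lower. The limit from the ploidy of Msu holds here too. Of 23 aliphatic genes 7 were lower and none higher in Mav (median log2 fold change -0.96), and of 11 indole genes 1 was lower (median 0.81). AT3G19710 had 273, 130.2, 39.6, 158 and 71.99 CPM in Mav, against 595, 623, 393 and 628 CPM in Msu (log2 fold change -2.06 ± 0.46, adjusted p = 0.0106). AT5G14200 (log2 fold change -2.33 ± 0.49, adjusted p = 0.0077), the side-chain gene AT1G62570 (log2 fold change -1.62 ± 0.45, adjusted p = 0.0261) and the core gene AT1G16400 (log2 fold change -1.35 ± 0.44, adjusted p = 0.0458) were lower as well.

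AT2G20610 had 85.6, 73.6, 67.9, 61.9 and 39.1 CPM in Mav, against 141, 146, 100.5 and 150.2 CPM in Msu (log2 fold change -1.04 ± 0.22, adjusted p = 0.00878), and the transporter AT5G62680 had 143, 126, 67.1, 82.8 and 60.7 CPM in Mav, against 41.01, 41.5, 55.8 and 43.4 CPM in Msu (log2 fold change 1.08 ± 0.27, adjusted p = 0.0172). Neither overlapped. The regulator AT5G07690 was lower in Mav (log2 fold change -1.15 ± 0.36, adjusted p = 0.0408), as was the indole side-chain gene AT4G37430 (log2 fold change -1.30 ± 0.38, adjusted p = 0.03).

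The Mav and Msu counts rested on few libraries: 6 members were called without A4 or A48, 4 without S38, 3 without S39 or S43 and 1 with near-identical libraries summed. AT1G16400 and AT5G07690 lost their call without any of A4, A45, A46, A48, S38, S39 and S43, AT1G62570 without A45, A46, S38, S39 or S43, AT2G20610 without A48, S39 or S43, AT4G37430 without A1, A4, A48, S38, S39 or S43, and AT5G62680 without A1, A4, S38, S39 or S43. Of 22 further pathway genes 1 was higher in Mav and 7 lower. They were led by AT1G65880 (at most 0.0622 CPM in Msu, log2 fold change 6.04 ± 1.03, adjusted p = 0.00301), AT1G31180 (log2 fold change -3.54 ± 0.65, adjusted p = 0.00436) and AT5G48850 (log2 fold change -2.88 ± 0.70, adjusted p = 0.0149).

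At T2, 14 of 40 genes were higher and 7 lower in droughted Mmo than in droughted Mav, where 17% of all features were higher and 15.2% lower. Of 24 aliphatic genes 12 were higher and 3 lower (median log2 fold change 1.68), while of 11 indole genes 1 was higher and 4 lower (median -0.58). The median over all features was 0.02. Both senescence markers were lower in Mmo (median log2 fold change -3.69), as were 3 of 5 drought markers (median -1.64) and the 1 root marker tested (-9.53), and 2 of 6 leaf mesophyll markers were higher (median 0.54). Their part in the differences was not tested.

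AT2G31790, the aliphatic core gene with the largest called difference among those named, had 251, 250.3 and 202 CPM in Mmo, against 51.8, 18.01, 15.3, 39.2 and 58.96 CPM in Mav (log2 fold change 2.67 ± 0.42, adjusted p = 0.0011). AT5G23010 had 298, 296 and 88.2 CPM in Mmo, against 55.8, 28.9, 14.1, 70.3 and 54.4 CPM in Mav (log2 fold change 2.34 ± 0.52, adjusted p = 0.00613). Both were higher in all 3 Mmo libraries. AT1G16410 (log2 fold change 2.17 ± 0.52, adjusted p = 0.00875) and AT4G13770 (log2 fold change 1.96 ± 0.50, adjusted p = 0.0122) were higher too, as were AT5G23020 (log2 fold change 2.64 ± 0.55, adjusted p = 0.00447), AT1G16400 (log2 fold change 2.51 ± 0.53, adjusted p = 0.00477) and AT4G12030 (log2 fold change 2.48 ± 0.50, adjusted p = 0.00375).

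In the indole core, CYP79B3 had no count in Mmo, against 0.879, 1.02, 4.70, 1.15 and 0.731 CPM in Mav (adjusted p = 0.00266). AT4G39950 had 4.16, 5.20 and 1.38 CPM in Mmo, against 9.03, 7.01, 13.1, 7.81 and 8.07 CPM in Mav (log2 fold change -1.33 ± 0.42, adjusted p = 0.0301). CYP83B1 had 17.4, 17.3 and 9.16 CPM in Mmo, against 20.6, 44.6, 44.9, 21.3 and 20.5 CPM in Mav (log2 fold change -1.06 ± 0.38, adjusted p = 0.0488). All 4 indole core genes were lower in the 3 Mmo libraries than in the 5 Mav libraries, where 21.4% of all features were.

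The side-chain genes AT4G37400 and AT4G37430 differed in opposite directions. AT4G37400 had 46.9, 44.5 and 31.98 CPM in Mmo, against 154, 131, 86.2, 108 and 165 CPM in Mav (log2 fold change -1.65 ± 0.26, adjusted p = 0.00121). AT4G37430 had 337, 300.5 and 394 CPM in Mmo, against 166, 171, 41.6, 144 and 178 CPM in Mav (log2 fold change 1.29 ± 0.39, adjusted p = 0.0263). Summed with AT4G37410 they gave a log2 fold change of 0.52 and no call.

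Of the regulators at T2, AT5G61420 (log2 fold change 1.47 ± 0.45, adjusted p = 0.0262) and AT5G07700 (log2 fold change 2.95 ± 0.77, adjusted p = 0.0134) were higher in droughted Mmo. AT5G07700 had 0.722, 0.757 and 1.13 CPM in Mmo, against 0.160, 0, 0.0318, 0.203 and 0.146 CPM in Mav. The third aliphatic regulator, AT5G07690, was not called (log2 fold change 1.69 ± 0.77, adjusted p = 0.105), nor was an indole regulator or a transporter.

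Without M17s 13 members were called in this comparison, and with near-identical libraries summed 9 were. AT4G31500 lost its call without A35s, A39s, M17s, M19s or M20s, AT4G39950 without A28s, A39s, M17s or M20s, AT4G37430 without M17s, M19s or M20s, AT4G13770 without M17s or M19s, AT5G61420 without A39s, A37s, M17s or M19s, and AT2G20610 (log2 fold change 1.12 ± 0.21, adjusted p = 0.00263) without M17s. Of 22 further pathway genes 9 were higher in Mmo and 3 lower. AT1G76790 had 51.1 to 70.7 CPM in Mmo and 0.0338 to 0.604 CPM in Mav (log2 fold change 7.68 ± 0.60, adjusted p = 4.7e-05), and AT1G21100 (log2 fold change 6.31 ± 0.62, adjusted p = 1.2e-04) and AT1G21120 (log2 fold change 5.45 ± 0.96, adjusted p = 0.00195) followed.

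After rewatering, of 37 genes 18 were higher and 2 lower in rewatered Mmo than in rewatered Mav, where 17.1% of all features were higher and 18.1% lower (35.2% in either direction). Of 23 aliphatic genes 14 were higher and 1 lower (median log2 fold change 1.22), and of 9 indole genes 2 were higher and 1 lower (median 0.65). AT4G12030 (log2 fold change 3.67 ± 0.50, adjusted p = 4.0e-04), SOT17 (log2 fold change 3.32 ± 0.14, adjusted p = 1.8e-06) and AT2G31790 (log2 fold change 2.50 ± 0.57, adjusted p = 0.00538) had the largest differences among the called aliphatic genes.

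SOT17 had 19.8, 19.4, 20.9 and 19.2 CPM in Mmo, against 1.98, 1.66, 2.42 and 1.79 CPM in Mav. AT5G61420, the aliphatic regulator, had 112, 56.8, 53.9 and 48.2 CPM in Mmo, against 8.65, 7.37, 24.4 and 8.17 CPM in Mav (log2 fold change 2.46 ± 0.47, adjusted p = 0.00216). Both were higher in every Mmo library than in any Mav library. AT5G07690 (log2 fold change 1.89 ± 0.59, adjusted p = 0.0223), AT5G23010 (log2 fold change 1.22 ± 0.39, adjusted p = 0.0249), AT1G16410 (log2 fold change 1.70 ± 0.40, adjusted p = 0.00666), AT4G13770 (log2 fold change 2.40 ± 0.35, adjusted p = 5.5e-04), UGT74B1 (log2 fold change 1.94 ± 0.28, adjusted p = 5.3e-04) and AT2G20610 (log2 fold change 1.65 ± 0.28, adjusted p = 0.00122) were also higher.

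CYP83B1 had 5.14, 152, 163 and 159 CPM in rewatered Mmo, against 2.57, 2.30, 15.2 and 2.12 CPM in Mav (log2 fold change 4.41 ± 1.13, adjusted p = 0.00949), with M25s the low Mmo library and A40s the high Mav library. AT1G74100, of the indole core, was higher (log2 fold change 1.41 ± 0.28, adjusted p = 0.00257) and the indole regulator AT5G60890 lower (log2 fold change -1.57 ± 0.51, adjusted p = 0.0274). The rewatered groups held 2 distinct profiles each, and with near-identical libraries summed only 1 member was called. AT5G07690 lost its call without A30s, A38s, A42s or M25s, AT5G23010 without A30s, A38s, A40s, A42s or M25s, and AT5G60890 without A30s, A38s, M26s or M28s. Of 23 further pathway genes 9 were higher in Mmo and 4 lower, led by AT5G48850 (0.313 to 1.81 CPM in Mmo and 6.96 to 46.5 CPM in Mav, log2 fold change -5.66 ± 0.83, adjusted p = 5.5e-04), AT1G21120 (log2 fold change 5.44 ± 1.13, adjusted p = 0.00353) and AT1G21100 (log2 fold change 4.82 ± 1.01, adjusted p = 0.00365).

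**Figure D3:**
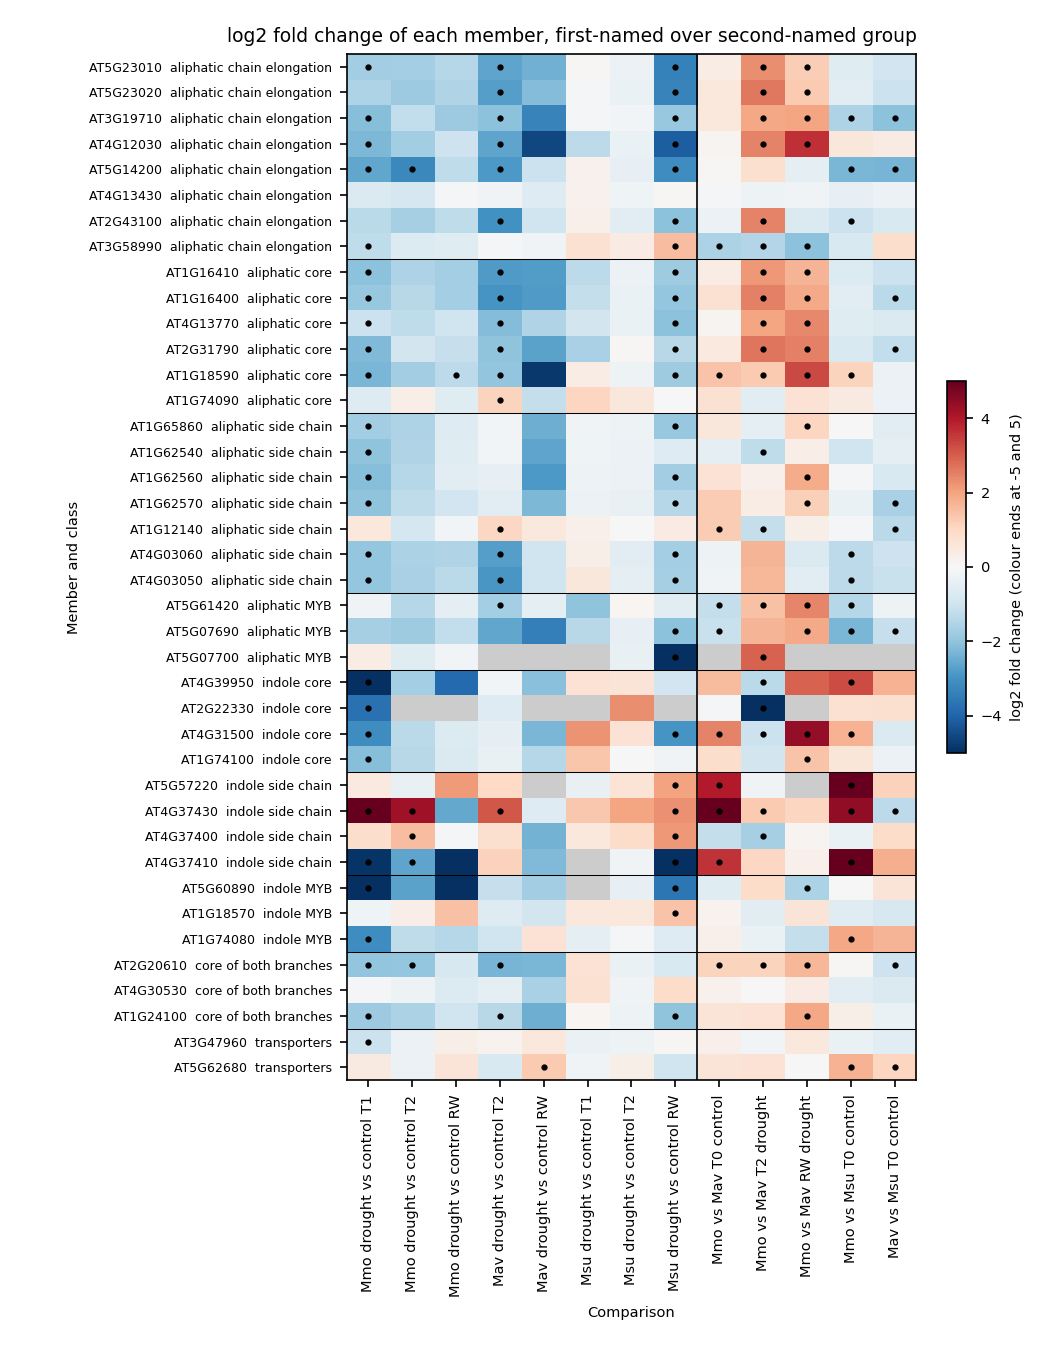
Heat map of the log2 fold change of each of the 40 genes (rows, by pathway step) in each comparison (columns), on a colour scale with red for higher and blue for lower in the group named first; dots mark called genes and grey marks genes not tested. The columns of Mmo at T1 and Mav at T2 are mostly blue over the aliphatic rows, with 16 and 14 called decreases, and AT4G37430 is red in both and in Mmo at T2.

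AT5G61420 ranged over 71.6 to 97.9 CPM in droughted and 29.3 to 124 CPM in control Mmo at T1, and over 3.59 to 21.5 CPM in droughted and 9.94 to 83.2 CPM in control Mav at T2. AT5G07700 failed the count filter in 7 of the 13 comparisons of 2 groups, with 0.722 to 1.13 CPM in droughted Mmo and 1.16 to 1.48 CPM in control Mmo at T2. Of the transporters, AT3G47960 was called in Mmo at T1 alone of the 8 drought comparisons, and AT5G62680 in Mav at RW alone.

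The correlation of each regulator with the summed aliphatic enzymes over 78 libraries was 0.60 for AT5G61420, 0.91 for AT5G07690 and 0.67 for AT5G07700, and with the summed indole enzymes it was 0.54 for AT5G60890, -0.19 for AT1G18570 and 0.16 for AT1G74080. The regulator AT5G60890 correlated about as well with the aliphatic sum (0.57). The transporters had 0.40 (AT3G47960) and 0.27 (AT5G62680) with the aliphatic sum. These values are descriptions over libraries that share species and treatments.

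**Figure D4:**
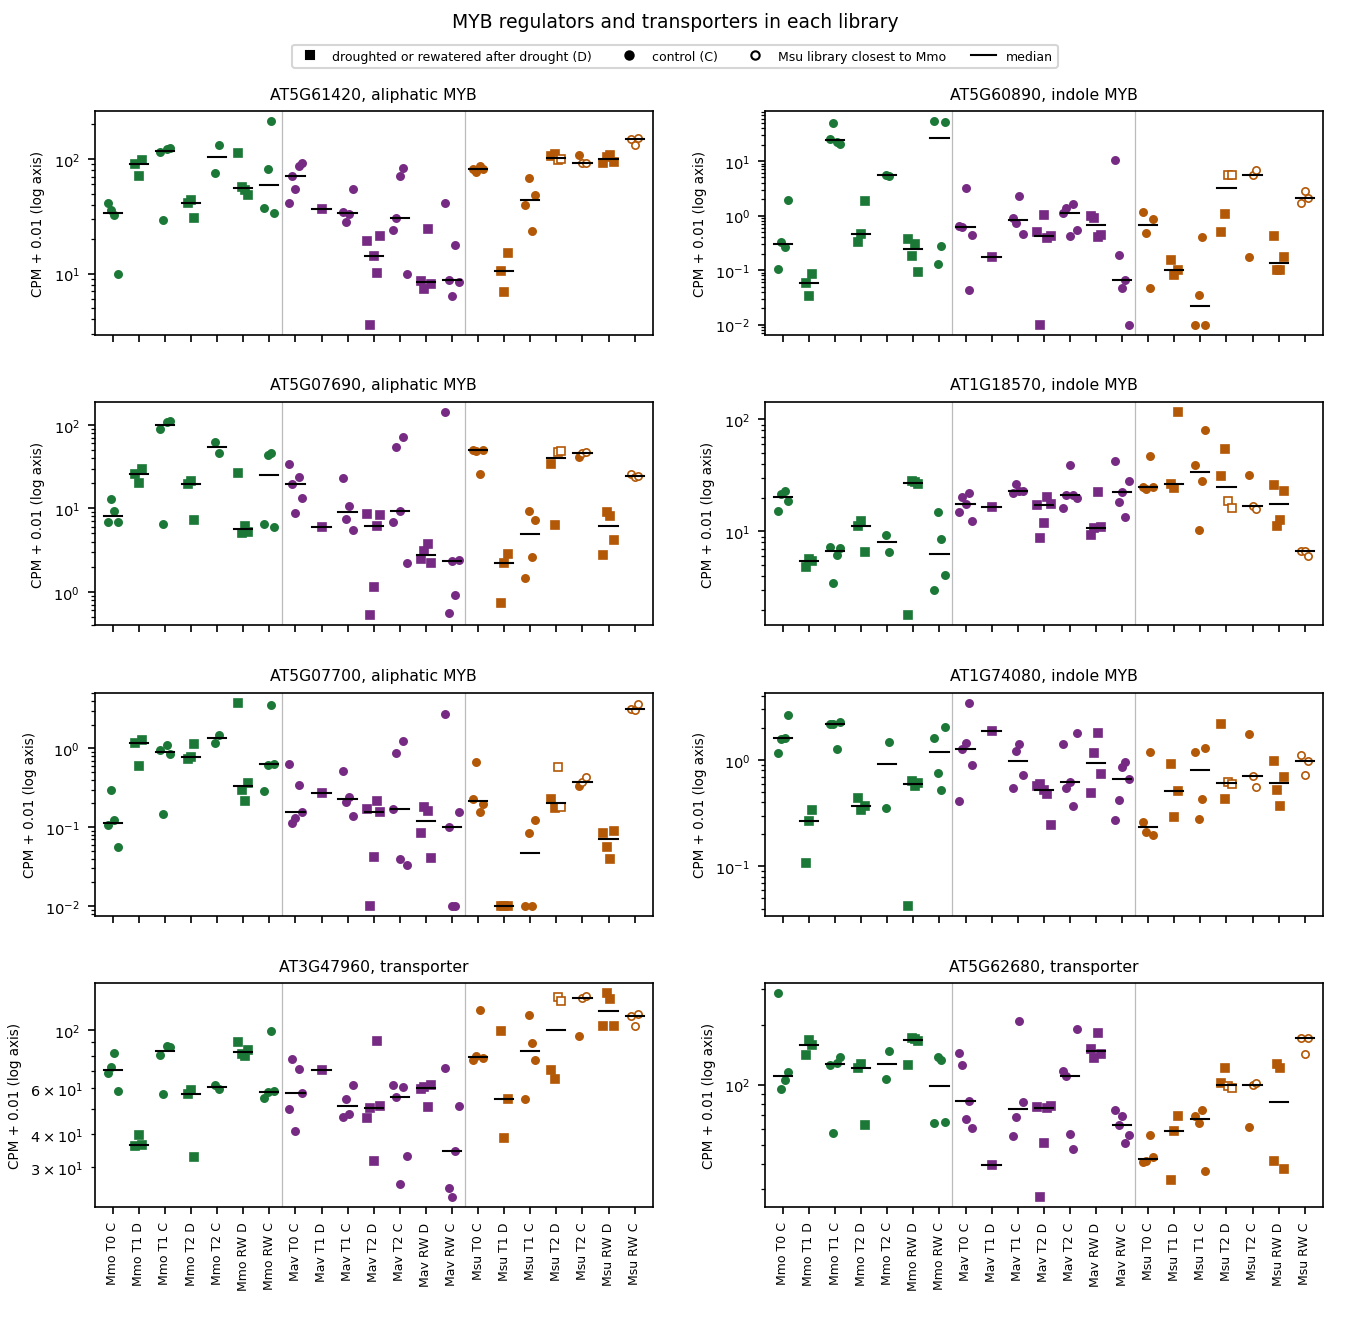
CPM of the 6 MYB regulators and the 2 transporters on log axes, 1 point per library, by species and time point, with droughted plants left of controls; open points are the 7 Msu libraries that resembled Mmo, and an offset of 0.01 CPM keeps values of 0 on the axis. AT5G60890 in Mmo at T1 lies between 0.0231 and 0.0763 CPM under drought and between 20.6 and 50.4 CPM in controls.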

How the data were processed

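Leaf RNA of 78 libraries was sequenced, and the deposited tables hold an estimated count and a TPM value for 33602 features of TAIR10 in each library. Per the study's methods, the authors' service provider mapped reads with BLAT in protein space to a minimal set of Arabidopsis coding sequences and kept the best-scoring mappings. How reads with several best hits were assigned and how reads were trimmed is not given in the sources used here, so close paralogs can share or split reads. With the same Arabidopsis reference for all species, mapping and expression cannot be told apart between species. The deposited estimated counts were whole numbers, with totals between 22346621 and 41675513 per library. The authors' TPM values summed to the same total in every library and were used for the sums given in TPM. The sums in correlations were of CPM.

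Samples were grouped by their labels. Each comparison was fitted with the libraries of its own groups in edgeR 4.0.16 (R 4.3.3; limma 3.58.1) with its default filter on low counts, TMM scaling and the quasi-likelihood F-test. P-values were adjusted by Benjamini-Hochberg over every feature tested, and calls needed an adjusted p below 0.05 with a log2 fold change beyond 1 in size. CPM values were scaled by TMM over all libraries, and an offset of 0.5 CPM was used in correlations. No fold was given for a gene with no count in a group. The fits were also run on simulated counts of independent libraries, which does not cover the near-identical libraries of these data. Members and lists were chosen with earlier results of these data known. Values are given for the MYB and transporter genes, for 6 early enzymes of both branches, and in each comparison for up to 4 called members per branch and up to 3 further pathway genes with the largest fold change and a group mean of at least 1 CPM. Alternatives were DESeq2 1.42.0, RLE size factors in place of TMM, no filter, an adjusted p under 0.01, a fit over all 78 libraries, near-identical libraries or close paralogs summed, another control set for Msu, leaving out sequencing lane 7 and leaving out each library. No reference genome was used and no sequence is shown. At these totals counting error was small for most members, but not for those at a few counts (AT5G60890, AT5G07700 and CYP79B3 in some groups).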

Additional observations from a re-analysis of the deposited data

Results flagged for a closer look

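In groups of 4 to 10 libraries, the summed enzymes and 6 early enzymes were checked for a highest or lowest library far from the others. Of 112 such checks, each of 1 sum or gene in 1 group, 32 found one. Chance gives about 1 in 20 for independent libraries and independent, normally distributed values, a rate that cannot be applied here. CPM and TPM were checked without a log, and the enzymes and their sums are correlated. In the groups of M25s, M6c, A40s and S42 other libraries were near-identical to each other. The results fell on few libraries, with 7 for A6c, 7 for M25s, 5 for M6c, 5 for A40s and 3 for S42.

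The Mav RW control A6c was far above the other controls in the aliphatic sum (15104 TPM), the indole sum (580.3 TPM), AT5G23010 (1539 CPM), AT1G16410 (547 CPM), AT4G13770 (1762 CPM), AT4G39950 (17.6 CPM) and CYP83B1 (AT4G31500, 101 CPM). The rewatered Mmo library M25s was high in the aliphatic sum (4481.5 TPM), AT5G23010 (296 CPM), AT1G16410 (109.9 CPM) and AT4G13770 (1515 CPM) and low in the indole sum (33.7 TPM), AT4G39950 (0.162 CPM) and AT4G31500 (5.14 CPM).

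The Mmo T1 control M6c was low in the aliphatic sum (2749 TPM), AT5G23010 (169 CPM), AT1G16410 (92.8 CPM) and AT4G13770 (1077 CPM) and high in AT4G39950 (165 CPM). The rewatered Mav library A40s was high in AT1G16410 (28.96 CPM), AT4G13770 (217 CPM), AT4G39950 (2.90 CPM), AT2G22330 (0.248 CPM) and AT4G31500 (15.2 CPM). The Msu T0 control S42 was low in the aliphatic sum (3033.5 TPM), AT5G23010 (98.0 CPM) and AT1G16410 (83.5 CPM).

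Single genes stood out in 5 other libraries. AT1G16410 was low in the Mmo T0 control M12c (50.4 CPM). AT4G39950 was high in the Mav T0 control A45 (26.3 CPM), the Msu T0 control S38 (3.14 CPM) and the droughted Msu library S2s at T2 (52.6 CPM), and AT2G22330 was high in the droughted Mav library A39s at T2 (4.70 CPM).

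The edgeR interaction test described above called AT1G12140 (Mmo minus Mav at T2, log2 -1.93) and AT4G37410 (log2 -3.78), a share of the members no larger than that of all features. No call was left at an adjusted p under 0.01, with near-identical libraries summed, or without M16c, M17s or M19s. With close paralogs summed, the interaction for AT4G37410 was positive and not called.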

How the results depend on the processing

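Of 820 fold changes of named genes under the alternatives other than leaving out a library, 634 kept their call and direction, 178 lost the call and 8 reversed; of 866 with a library left out, 693 kept it, 173 lost it and 0 reversed. The reversals came with close paralogs summed, at log2 0.62 for AT4G37430 (Mav over Msu, T0), 0.82 (Mmo T1), 2.34 (Mmo T2), 0.81 (Msu RW) and 0.76 (interaction) for AT4G37410 and 0.52 for AT4G37400 (Mmo over Mav, T2), and with the Msu controls of T0 and T1 for rewatered Msu, at -0.98 for AT1G18570 and -0.55 for AT4G37430.

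The number of members called changed by more than 1.5 times as follows. At an adjusted p under 0.01 it was 0 in Mav RW, Mmo RW, Mmo T2 and the interaction, 8 in Mav T2, 3 in Mav over Msu at T0, 12 in Mmo T1, and in Mmo over Mav 5 at T0 and 11 at T2. With near-identical libraries summed it was 0 in Mav RW, Mmo RW and the interaction, 1 in Mav over Msu at T0, Mmo T2 and Mmo over Mav RW, 9 in Mmo T1 and Mmo over Mav T2, and 3 in Mmo over Msu at T0. In a fit over all 78 libraries it was 16 in Mav RW (1 higher and 15 lower) and Msu RW, 4 in Mav over Msu at T0 and Mmo RW, 13 in Mmo T1 and Mmo over Mav T2, 8 in Mmo over Msu at T0, and 1 in Mmo T2, Msu T1 and the interaction. With close paralogs summed, which left 27 or 28 units to test in place of up to 40 genes, it was 0 in Mmo RW, 17 in Mmo T1, 3 in Mmo T2, 16 in Msu RW, 1 in the interaction, and 13 at RW, 12 at T2 and 6 at T0 in Mmo over Mav. DESeq2 called 9 in Mmo RW, 19 in Mmo T2 and 6 in Msu T1. With no filter it was 0 in Mmo RW and 3 in Msu T1, and without lane 7 it was 0 in Mav RW and 1 in the interaction. Against the Msu controls of T0 and T1 it was 5 in Msu RW and 17 in Msu T2, and 12 in Msu T2 without 2 near-identical libraries, chosen after seeing the data. Apart from the smaller number of units with paralogs summed, the cause was not tested.

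Leaving out 1 library at a time, the number ranged over 0 to 2 in Mav RW, 13 to 19 in Mav T2, 3 to 12 in Mav over Msu at T0, 0 to 9 in Mmo RW, 12 to 31 in Mmo T1, 0 to 18 in Mmo T2, 6 to 11 (T0), 13 to 21 (T2) and 16 to 24 (RW) in Mmo over Mav, 13 to 15 in Mmo over Msu at T0, 26 to 28 in Msu RW, 0 to 1 in Msu T1, 0 to 0 in Msu T2 and 0 to 2 in the interaction. Lane went wholly with species in the T0 comparisons and in droughted Mmo over Mav at T2, where no lane was shared. It went partly with species in rewatered Mmo over Mav. With treatment it went wholly in Mmo RW and partly in Mmo T1, Mav T2 and Msu RW, so these cannot be told apart. No paired analysis was possible because the groups compared share no replicate labels.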
